A study of Mus musculus with 4 samples.

Results

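The genes described here encode the translation initiation factors eIF1 to eIF6, the elongation factors eEF1 and eEF2, and the kinases, repressors and methyltransferases named after them. They are all rows of the gene count table whose symbol begins with Eif1 to Eif6 or with Eef1 or Eef2, whose biotype is protein-coding in GENCODE M21, and which lie on an autosome or the X chromosome. Eif4a3, a helicase of the exon junction complex, and copies were left out. The rule found 63 of the 16449 genes in the table, and 3 further symbols that match it, Eef1akmt3, Eif4e1b and Eif4ebp3, have no row.

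Long-read Nanopore sequencing of poly(A)-enriched RNA was performed on mouse palliums at E11.5. The dorsal and medial regions were taken, from which the neocortex and hippocampus arise. The 4 libraries fall into 2 groups of 2, WT (WT 1 and WT 2) and Tut1 knockout (KO 1 and KO 2), and the question was how transcript levels respond to loss of Tut1, the enzyme that uridylates U6 snRNA. The labels give the controls only as WT, and the study names mice with 1 or 2 floxed Tut1 alleles as its controls, while its sequencing statistics list these WT libraries as Tut1 fl/fl. The knockout embryos are Tut1 f/f and carry Emx1-Cre, which recombines in the neural stem cells of the dorsal forebrain and in their progeny but not in blood, vessel or meningeal cells. How many embryos went into a library is not stated, so p-values refer to the spread between these 4 libraries. The test takes most of that spread from all genes together (2 residual and 37.5 prior degrees of freedom).

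Translation begins when a small ribosomal subunit, loaded with the initiator tRNA by eIF2 and held by eIF3, is brought to the 5′ cap of an mRNA by eIF4F and scans to a start codon with the help of eIF1 and eIF1A. After the large subunit has joined, eEF1A brings each aminoacyl-tRNA to the ribosome, the eEF1B subunits recharge eEF1A with GTP, and eEF2 moves the ribosome along by one codon. Neural progenitors divide fast and depend on high protein synthesis, and the amounts of many of these factors are in turn controlled at translation through a pyrimidine tract at the 5′ end of their mRNAs.

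Total counts were 305642 to 397150 per library, which is shallow, and 3 counts, taken here as the floor, correspond to 7.97 to 10.4 CPM, that is, counts scaled to TMM-adjusted library sizes. WT 1 is the only library with counts of the X-inactivation RNA Xist (64, against 0 in each other library). The Y-linked gene Eif2s3y had 0 counts in WT 1, 36 in WT 2, 42 in KO 1 and 27 in KO 2. By these rows WT 1 was female and the other libraries male, so sex was not balanced between the groups. Its part in the values was not tested. Tut1 itself was counted 6 and 11 times in WT and 29 and 25 times in KO (log2 fold change 1.71 ± 0.40, SE, edgeR adjusted p = 0.0113). The rise goes against the label, and a count summed over the whole gene does not show a deleted exon, so this row does not check the genotype and each direction given here is between libraries as labelled. In bulk tissue, fewer cells of a type and less RNA per cell cannot be told apart. Markers moved with the label as well. Progenitor markers summed to 1941 to 2154 CPM in WT and 1260 to 1393 CPM in KO, and neuronal markers to 557 to 573 CPM and 1164 to 1225 CPM. By staining at the same stage, the paper found similar numbers of cells positive for Pax6, Tbr2 and Dcx in both genotypes.

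Of the 50 tested factors 1 was called, Eef1d, and this call was lost in DESeq2 and without WT 2, KO 1 or KO 2. Eef1d, the guanine nucleotide exchange subunit eEF1Bδ, fell to 0.65 of its WT level in the libraries labelled knockout, and none of the other 49 genes that could be tested passed an adjusted p of 0.05 in edgeR's quasi-likelihood test. That is 2.0% of 50 tested genes, against 2.06% of all 5878 tested genes (0.663% lower and 1.4% higher in KO), so the share called was close to that of the whole table. At an unadjusted p below 0.05, 3 of the 50 were found (6.0%, against 14.2% of all tested genes, 6.31% lower and 7.88% higher). These were Eef1d and Eif4g2, with lower values in KO, and Eif3k, with higher values in KO.

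Estimates leaned to lower values in KO, and this lean was described but not tested. Of the 50 estimates, 34 (68.0%) were below 0, against 51.6% of all tested genes, and their median log2 fold change was -0.13, against -0.01 over all tested genes. With libraries scaled by total counts alone both medians moved up together, to -0.065 for the factors and 0.048 for all tested genes. The groups did not overlap in CPM for 17 genes (34.0%, against 42.9% of all tested genes). Both KO libraries lay under both WT libraries for 12 of them (24.0%, against 20.8%) and above them for 5 (10%, against 22.1%). For 34 of the 50 genes the 95% interval of the fold change stayed within 2-fold in either direction, and the median SE was 0.31 on the log2 scale.

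**Figure D1:**
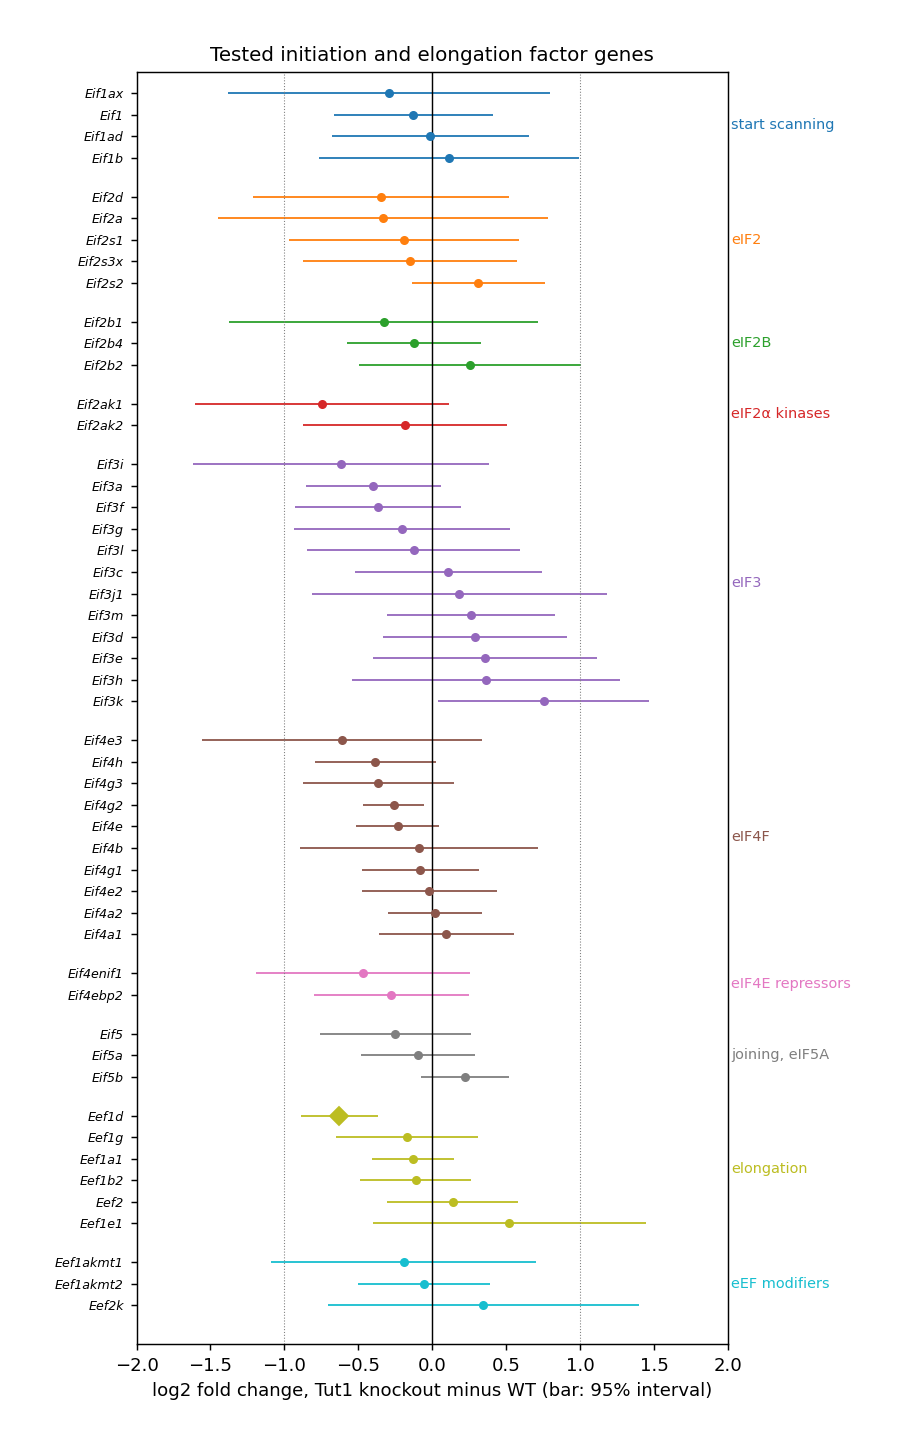
Log2 fold change between libraries labelled Tut1 knockout and WT for the 50 tested factors, grouped by role, with the 95% interval as a bar and dotted lines at 2-fold. The diamond marks Eef1d, the gene called, and most other intervals cross 0.

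Counts of all 63 genes together were 4700 and 5126 in WT and 4825 and 3577 in KO, which is 1.30% and 1.31% of all counts in WT and 1.21% and 1.17% in KO. On the CPM scale their sum was 14277 on average in WT and 12623 in KO. Eif4g2 and Eef1d made up most of the difference of -1654 CPM, with -657 and -589 CPM respectively. The other 61 genes summed to 8527 and 8793 CPM in WT and to 8297 and 8207 CPM in KO.

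Eef1d lies on chromosome 15 (chr15:75894205-75909556, minus strand, GRCm38). It had 498 and 658 counts in WT, against 390 and 326 in KO, which is 1508 and 1838 CPM against 1036 and 1132 CPM. Both WT libraries lay above both KO libraries, and WT 2 was the highest. The mean was 1673 ± 233 CPM (SD, n = 2) in WT against 1084 ± 67.8 CPM (n = 2) in KO, the log2 fold change was -0.63 ± 0.13 (SE), the fold was 0.65 with a 95% interval of 0.54 to 0.78, and edgeR's adjusted p was 0.00381. The call rested on each of 3 libraries. The adjusted p was 0.154 without WT 2, 0.220 without KO 1 and 0.0712 without KO 2, and it was 0.0630 in DESeq2, while the log2 fold change stayed between -0.77 and -0.49. Naprt overlaps Eef1d on the same strand and held 1, 6, 3 and 4 counts in WT 1, WT 2, KO 1 and KO 2.

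The proliferation markers Mki67, Top2a, Cenpf, Ccnb1 and Cdk1 summed to 3388 to 3907 CPM in WT and 2456 to 2726 CPM in KO. All 5 estimates were lower in KO, and 2 were called (Mki67 and Cenpf). In stained sections of the same stage, the paper found Ki67 and BrdU labelling of dividing cells comparable between genotypes. Of 6 progenitor markers tested 5 had lower estimates, and 1 was called (Lhx2). All 6 tested markers of intermediate progenitors and neurons had higher estimates, and 2 were called (Dcx and Mapt). Of all tested genes, 0.663% were called lower and 1.4% higher. Markers of cells that Emx1-Cre does not recombine also differed: all 3 microglia genes tested rose, with a sum of 81.8 to 86.6 CPM in WT and 274 to 287 CPM in KO, 1 of 3 mesenchymal genes rose (Col1a2, summed list 90.9 to 229 and 288 to 425 CPM), and the endothelial list summed to 39.4 to 55.9 and 86.8 to 93.0 CPM. The ventral GABAergic markers summed to 0 to 44.7 CPM in WT and 90.3 to 144 CPM in KO, with Dlx1 called, while the red cell lists overlapped (800 to 1109 and 868 to 1262 CPM) and Hbb-bh1 fell within them. The part of these cell types in the change of Eef1d was not tested.

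Eef1d works in a complex with the exchange factor eEF1Bα, encoded by Eef1b2, and the scaffold eEF1Bγ, encoded by Eef1g. The catalytic ends of Eef1d and Eef1b2 are related, and their coding sequences align over 389 bases at 67.6% identity. The 60 bases with the fewest differences are shown to compare the gene that fell with the partner that was not called. They are taken from GENCODE M21, read 5′ to 3′ on the coding strand, and the 12 differing bases are in capitals. The Eef1d stretch spans an intron at chr15:75895894-75896269 (minus strand) and the Eef1b2 stretch lies at chr1:63179268-63179327 (plus strand).
Eef1d: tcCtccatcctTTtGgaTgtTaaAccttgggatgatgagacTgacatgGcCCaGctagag
Eef1b2: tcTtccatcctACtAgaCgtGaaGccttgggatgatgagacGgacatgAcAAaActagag
Even in this stretch the rows differ at 12 of 60 bases, whereas Eef1g and its copy, shown further on, differ at 5 of 1311.

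Eef1b2 had 121 and 123 counts in WT, against 116 and 101 in KO (367, 344, 308 and 351 CPM), and the groups overlapped. Its log2 fold change was -0.11 ± 0.18 (adjusted p = 0.858, edgeR), with a 95% interval of -0.49 to 0.26. Within each library there were 4.12 and 5.35 counts of Eef1d for each count of Eef1b2 in WT and 3.36 and 3.23 in KO. Whether the changes of the 2 genes differ was not tested.

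Eef1a1, which encodes the main eEF1A of dividing cells, had 328 and 438 counts in WT, against 375 and 297 in KO. On the CPM scale these are 994, 1223, 997 and 1032, so WT 2 stood above the other 3 libraries. The log2 fold change was -0.13 ± 0.14 (adjusted p = 0.755, edgeR). Eef2, the translocation factor, had 62 and 80 counts in WT, against 81 and 69 in KO, with a log2 fold change of 0.14 ± 0.22 (adjusted p = 0.853). The neuronal and muscle form Eef1a2 was too low to test, at 3, 2, 3 and 7 counts in WT 1, WT 2, KO 1 and KO 2. Eef1e1, a scaffold of the aminoacyl-tRNA synthetase complex, ranged from 22.3 to 53.1 CPM with overlapping groups.

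**Figure D2:**
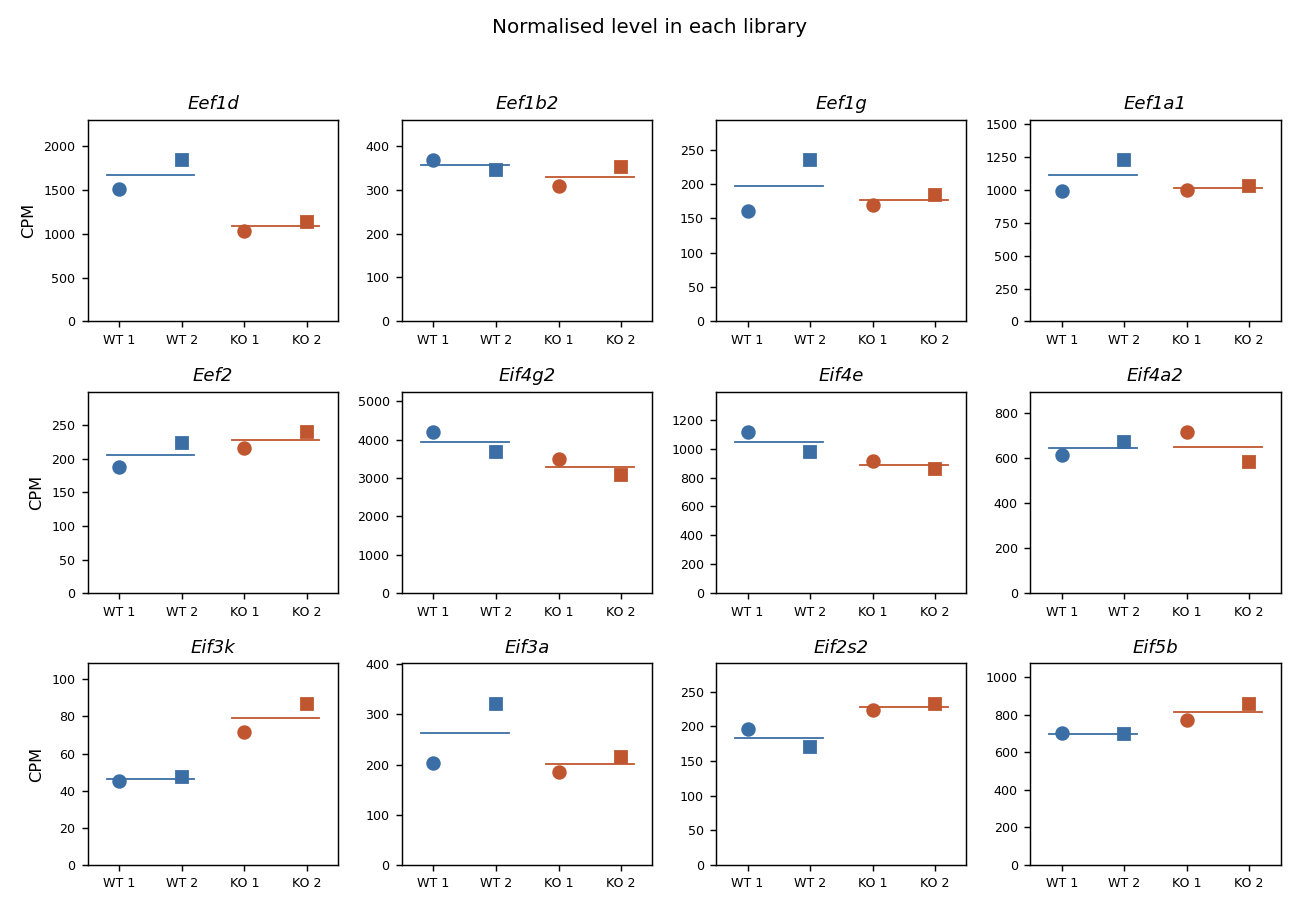
CPM of 12 factors in each of the 4 libraries (circles replicate 1, squares replicate 2, lines the mean of each group; every axis starts at 0). Eef1d lies at 1508 and 1838 CPM in WT and 1036 and 1132 CPM in KO, and WT 2 is the highest library for Eef1d, Eef1g, Eef1a1 and Eif3a.

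Eef1g lies 830 bases downstream of Tut1 on the same strand of chromosome 19 (chr19:8967041-8978479, plus strand), and a near-identical row held more counts than its own. Eef1g had 53 and 84 counts in WT, against 64 and 53 in KO. The processed pseudogene Gm4366 (chr7:116824510-116825851, minus strand), which is 99.6% identical to the Eef1g mRNA over its whole length of 1342 bases, had 77 and 139 counts in WT, against 76 and 86 in KO, more than Eef1g in each library. Reads of the 2 rows can therefore be exchanged. Their coding stretch with the most differences is shown because it holds 2 of the 5 bases by which the rows differ over the 1311 bases of Eef1g coding sequence, with those bases in capitals and each gene on its own strand. The stretches lie at chr19:8972904-8972963 (plus strand) and chr7:116825112-116825171 (minus strand), and counted from 1 at the first base shown, the differences are C24T and C60T.
Eef1g: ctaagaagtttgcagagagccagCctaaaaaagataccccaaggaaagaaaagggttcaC
Gm4366: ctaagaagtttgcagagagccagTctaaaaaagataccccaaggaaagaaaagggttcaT

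The ratio of Gm4366 to Eef1g counts was 1.45 and 1.65 in WT and 1.19 and 1.62 in KO. Eef1g alone gave a log2 fold change of -0.17 ± 0.24 (adjusted p = 0.836, edgeR), and without WT 2 its estimate was 0.13. Gm4366 gave -0.34 ± 0.22 (adjusted p = 0.543). Summed, the rows held 130 and 223 counts in WT and 140 and 139 in KO, or 508 ± 162 CPM and 427 ± 78.3 CPM (SD, n = 2), and the groups overlapped. Among the 1146 pseudogene rows of the table, 16 are copies of 12 of the factors at 90% identity or more over at least 50% of the copy. Other than Gm4366, the copy with the most counts was Eif4a-ps4, 99.9% identical to Eif4a1, at 7, 16, 8 and 8 counts. With all copies summed to their parent genes, 1 factor was called, and it was Eef1d (adjusted p = 0.00418).

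**Figure D3:**
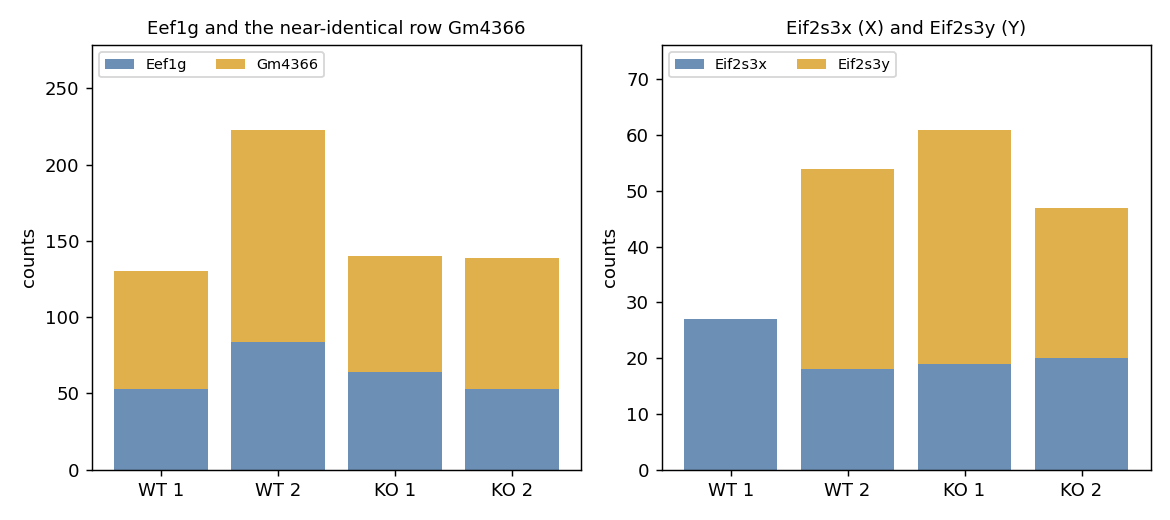
Counts per library of Eef1g stacked with Gm4366 (left) and of Eif2s3x stacked with its Y-linked partner Eif2s3y (right). Gm4366 holds more counts than Eef1g in all 4 libraries, and Eif2s3y is at 0 in WT 1 and at 27 to 42 in the other libraries.

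Of the genes whose products modify elongation factors, 3 of 5 were tested and none was called by edgeR, at adjusted p of 0.847 to 0.948. Eef2k, the kinase that blocks eEF2, had 5 and 12 counts in WT, against 15 and 6 in KO. Eef1akmt2, a lysine methyltransferase of eEF1A, was the highest of them at 75 and 69 counts in WT and 77 and 57 in KO, and it overlaps Fgfr2 on the same strand. The levels of neither gene separated the groups.

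The eIF4F group comprises the cap-binding, scaffold and helicase proteins that bring the ribosome to the mRNA. All 10 of its genes were tested, none was called, and 8 of 10 estimates were lower in KO (median -0.16). Eif4g2 (chr7:111067750-111083030, minus strand) encodes DAP5, a relative of eIF4G without the cap-binding part that serves initiation on selected mRNAs. It had the highest CPM of all factors, with 1387 and 1320 counts in WT and 1313 and 888 in KO, or 4201, 3687, 3489 and 3084 CPM. The groups did not overlap, but the nearest libraries, WT 2 and KO 1, lay close together. Its log2 fold change was -0.26 ± 0.10 and its 95% interval -0.47 to -0.05 (unadjusted p = 0.0145, edgeR adjusted p = 0.199). It was -0.17 without WT 1 and -0.18 without KO 2, with unadjusted p of 0.211 and 0.149 in edgeR.

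Eif4e, the cap-binding protein itself, had 368 and 350 counts in WT, against 345 and 247 in KO (1115, 978, 917 and 858 CPM). Both KO libraries were under both WT libraries, by less than the test resolves (log2 fold change -0.23 ± 0.14, adjusted p = 0.477). Eif4h, which stimulates the helicase, was likewise lower, at 285 and 293 CPM in WT and 221 and 222 CPM in KO (adjusted p = 0.401). The helicase genes and the main scaffold stayed near 0: the log2 fold change was 0.09 ± 0.23 for Eif4a1, 0.02 ± 0.16 for Eif4a2 and -0.08 ± 0.20 for Eif4g1. Eif4a2 exceeded Eif4a1 by a near constant ratio of 3.27 and 3.38 in WT and 3.13 and 3.23 in KO.

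The repressors that compete for eIF4E were low to moderate. Eif4ebp2 had 44 and 55 counts in WT, against 47 and 32 in KO, with the KO libraries lower in CPM (133, 154, 125 and 111). Eif4enif1, the shuttling protein that takes eIF4E into the nucleus, had 20 and 30 counts in WT, against 24 and 11 in KO, and its groups overlapped. Both had adjusted p above 0.6, at 0.704 and 0.619, and Eif4ebp1 was too low to test.

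**Figure D4:**
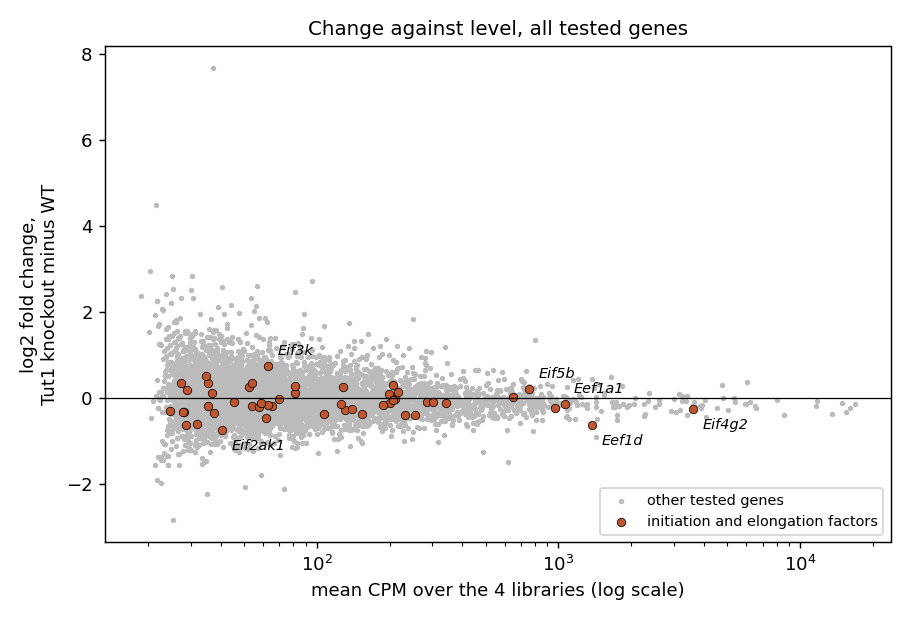
Log2 fold change against mean CPM over the 4 libraries (log axis) for all 5878 tested genes, with the 50 tested factors in orange. Eif4g2 is the factor with the highest mean at 3615 CPM, and Eef1d, at 1379 CPM, has a log2 fold change of -0.63.

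Levels between genes were compared per kilobase of median transcript length. On that scale Eif4e was highest, at 1220 CPM per kb, followed by Eef1d at 849, Eif4g2 at 626 and Eef1a1 at 592. Long reads count roughly 1 read per molecule, so the order without division by length is given too: Eif4g2 at 3615 CPM, Eef1d at 1379, Eef1a1 at 1061, Eif4e at 967 and Eif5b at 757, as means over the 4 libraries. At the other end, 13 factors were too low to test, with 0 to 14 counts in any library, among them the eIF2α kinase genes Eif2ak3 and Eif2ak4, the eIF3 subunit gene Eif3b, the anti-association factor gene Eif6 and Eif5a2. The others were Eef1a2, Eif4ebp1, Eif1a, Eif2b3, Eif2b5, Eif3j2 and the methyltransferase genes Eef1akmt4 and Eef2kmt.

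The eIF3 genes encode the large scaffold on the small subunit. Of 14, 12 were tested and none was called. Of the 12 estimates 7 were higher and 5 lower in KO, with a median log2 fold change of 0.15. Eif3k, a peripheral subunit, had 15 and 17 counts in WT, against 27 and 25 in KO, or 45.4, 47.5, 71.7 and 86.8 CPM, so that the groups stood well apart. The log2 fold change was 0.75 ± 0.35 (unadjusted p = 0.0387, edgeR adjusted p = 0.313), with a wide 95% interval of 0.04 to 1.46. Eif3a, the core subunit and the highest of the group in CPM, had 67 and 115 counts in WT, against 70 and 62 in KO. WT 2 alone was high, and the log2 fold change of -0.40 ± 0.23 (adjusted p = 0.448) became -0.03 without it. All 14 genes together reached 921 and 1042 CPM in WT, against 927 and 1066 CPM in KO.

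The eIF2 complex carries the initiator tRNA, and its subunit genes were described together with Eif2a and Eif2d, which encode separate factors that can deliver tRNA to the ribosome. All 5 genes were tested and none was called. Eif2s2, the β subunit, was highest, with 65 and 61 counts in WT and 84 and 67 in KO, or 197, 170, 223 and 233 CPM. Both KO libraries lay above WT, with a log2 fold change of 0.31 ± 0.22 (adjusted p = 0.586, edgeR). The γ subunit has an X-linked and a Y-linked gene. Eif2s3x had 27 counts in WT 1, 18 in WT 2, 19 in KO 1 and 20 in KO 2, whereas Eif2s3y, which the rule leaves out, had 0, 36, 42 and 27. The sum of both was therefore 81.8 CPM in WT 1 and 151, 162 and 163 CPM in the others. The estimate for Eif2s3x was -0.15 ± 0.36 with all libraries and 0.22 without WT 1.

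Phosphorylation of eIF2 by its kinases blocks eIF2B, the exchange factor, and directs translation to Atf4. Of the 5 eIF2B genes 3 were tested, with adjusted p of 0.842 to 0.875 in edgeR. Eif2b4 was highest, at 73 and 72 counts in WT and 79 and 50 in KO, and Eif2b2 had 14, 19, 22 and 16 counts. Of the 4 kinase genes 2 were tested. Eif2ak1, the heme-regulated kinase, had 13 and 22 counts in WT, against 10 and 10 in KO, and both KO libraries were lower in CPM. Its log2 fold change of -0.74 ± 0.42 was the lowest of all factors in the fit with all libraries, with an interval of -1.60 to 0.12 and an adjusted p of 0.456, but it was -0.39 without WT 2 and -1.03 without WT 1. Eif2ak2, the RNA-activated kinase, had 24, 24, 27 and 14 counts. None of the eIF2B and kinase genes was called.

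Of the genes for start site selection, 4 of 5 were tested, with adjusted p of 0.879 to 0.994. Eif1, which keeps the scanning ribosome open, had 46 and 44 counts in WT, against 39 and 40 in KO, and Eif1ax had 10, 9, 11 and 4. Subunit joining is carried out by eIF5B, whose gene Eif5b had 232 and 249 counts in WT, against 291 and 247 in KO. In CPM these were 703, 695, 773 and 858, with KO above WT in both libraries and a log2 fold change of 0.22 ± 0.15 (adjusted p = 0.554, edgeR). Eif5a had 312 and 316 CPM in WT and 282 and 306 CPM in KO.

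Genes that work with the factors were described from lists. The hydroxylase gene Dohh carries out the last step that makes hypusine on eIF5A, and it rose: it had 3 and 6 counts in WT, against 15 and 19 in KO, with a log2 fold change of 1.95 ± 0.52 (adjusted p = 0.0338, edgeR). Its highest WT count was 6, which lies near the floor. The call was lost without WT 1, KO 1 or KO 2, where the log2 fold change was 1.59, 2.30 and 1.58. It was also lost in limma-voom (1.86, adjusted p = 0.196) and with the replicate number as a block (2.01, edgeR adjusted p = 0.0595). Gm48551 overlaps Dohh on the same strand with 4, 5, 3 and 4 counts. Dhps, the enzyme of the first step, had 3, 4, 6 and 4 counts and was not tested.

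Diphthamide is the modified histidine of eEF2. Of 7 genes for its synthesis 3 were tested and none was called. Dnajc24 had 191 and 188 counts in WT, against 164 and 89 in KO (log2 fold change -0.55 ± 0.18, edgeR adjusted p = 0.0944), and the value was -0.34 without KO 2 and -0.83 without KO 1. Dph1 had 11 and 13 counts in WT, against 4 and 2 in KO (-1.91 ± 0.63, adjusted p = 0.102), and overlaps Ovca2, which had 3, 6, 5 and 9 counts. Both KO libraries were lower than both WT libraries for these 2 genes.

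Targets of the integrated stress response had 17 rows of 18 genes listed, Chac1 was at 0 in every library, and 5 were tested. None was called, and all 5 estimates were lower in KO (median -0.49). Among the rows too low to test, KO lay above WT in both libraries in CPM for Atf5 (1, 3, 10 and 3 counts), Sesn2 (0, 1, 2 and 7) and Slc7a5 (1, 2, 3 and 4). It lay under WT for Ddit3 (9, 15, 9 and 7) and Mthfd2 (6, 7, 5 and 3). The WT counts of Atf5, Sesn2 and Slc7a5 were at or under the floor of 3. Only library size set apart the equal counts of Atf5 in WT 2 and KO 2 and of Ddit3 in WT 1 and KO 1. Of all tested genes, 22.1% lay above in KO and 20.8% under. Atf4, the transcription factor at its centre, had 18 and 14 counts in WT, against 7 and 8 in KO (log2 fold change -1.03 ± 0.46, unadjusted p = 0.0319, edgeR adjusted p = 0.286). Together the list reached 430 to 458 CPM in WT, against 345 to 396 CPM in KO.

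None of 18 tested initiation helpers and cap-side regulators was called, with 12 estimates higher and 6 lower in KO (median 0.11). Pdcd4, an inhibitor of eIF4A, had 27 and 44 counts in WT, against 24 and 18 in KO (log2 fold change -0.70 ± 0.32, edgeR adjusted p = 0.286), and without WT 2 the value was -0.38. Bzw1, a mimic of eIF5, had 21, 17, 34 and 26 (0.70 ± 0.33, adjusted p = 0.312). Poly(A)-binding protein Pabpc1 had 78, 90, 100 and 60 counts and the ribosomal scaffold Rack1 had 22, 20, 17 and 15. None of 10 genes of the mTOR side was called, of which Rps6kb1 had the smallest p (35, 24, 23 and 16 counts, unadjusted p = 0.109 in edgeR). None of 3 genes for termination and recycling was called either, and Abce1, which splits ribosomes, was at 16, 22, 15 and 10 counts.

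Of 17 tested mRNAs known for a 5′ terminal oligopyrimidine tract, other than those of ribosomal proteins, 1 was called, which was Eef1d. In the list 13 of 17 estimates were lower in KO, with a median of -0.11. Nap1l1, a histone chaperone, had 567 and 578 counts in WT, against 513 and 380 in KO (log2 fold change -0.31 ± 0.12, edgeR adjusted p = 0.196), and Npm1, nucleophosmin, had 295, 324, 260 and 213 (-0.33 ± 0.14, adjusted p = 0.256). Tpt1 had 207, 236, 239 and 164 counts. Of the listed genes 10 belong to the 63 factors.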

How the data were processed

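The deposited table holds raw counts per gene, which the authors made from Nanopore reads (GRCm38). The methods name minimap2 with the Ensembl transcriptome for alignment and FLAIR for splicing, and the study also used FLAIR for differential expression. How isoforms were summed per gene, and how reads with several matches and strand were treated are not stated. Of 16449 identifiers, 16429 (99.9%) matched GENCODE M21. Sequences came from its transcripts.

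The test was edgeR 4.0.16 (R 4.3.3): filterByExpr (minimum count 10, minimum total 15), TMM, glmQLFit and glmQLFTest, two-sided, no covariate, Benjamini-Hochberg over 5878 genes, threshold 0.05. Standard errors are |log2 fold change| divided by √F, intervals are 95%, and CPM uses TMM-scaled sizes. Residual degrees of freedom were 2 and prior ones 37.5, and an exact permutation test cannot go under 0.333. Copies were found with blastn 2.17.0. The script was tested on simulated data.

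Members and lists were chosen with earlier results of these data known. Values per library are given for factors called or at an unadjusted p below 0.05, and for the highest and the smallest-p member of each role. Of each list of genes that work with the factors, genes at an unadjusted p below 0.05 (at most 4) or else the smallest-p gene are given. So are Pabpc1, Rack1, Tpt1, Atf4 and Tut1. Cell type markers are given by sums, directions and calls. Other genes were picked with their values in view. Alternatives were size factors, total counts, no filter, DESeq2 1.42.0, limma-voom (limma 3.58.1), the other quasi-likelihood form, the replicate block, leaving out each library and, added after seeing the data, copies summed.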

Additional observations from a re-analysis of the deposited data

How the results depend on the processing

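The number of factors called was 1 in the reported test and 0 with DESeq2, and it was 0 to 1 when each library was left out in turn, where a group left with 1 library borrowed its spread from the other group. It was 1 under the other alternatives run. The median log2 fold change of the factors was -0.13, -0.065 with total counts alone (where that of all tested genes moved from -0.01 to 0.048), and -0.17 to -0.10 without each library. The number whose groups do not overlap was 17, and 30 to 38 without each library, where a group of 1 separates more easily by construction.

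Of 28 genes and 335 values under alternatives, 11 turned direction, and none of the genes concerned was called. Eef1akmt2 was 0.0064 with total counts alone and ran from -0.18 to 0.056 without each library. On the same leave-one-out basis Eef2k ran from -0.24 to 1.03, Eif1 from -0.34 to 0.086, Eif1ax from -0.97 to 0.081, Eif2ak2 from -0.52 to 0.040, Eef1g from -0.42 to 0.13, Eef1a1 from -0.28 to 0.018 and Eif2s3x from -0.48 to 0.22. The cause was not tested. Lost calls were 9 in number, 4 of Eef1d and 5 of Dohh, for which DESeq2 gave no adjusted p.

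The deviations of same-numbered libraries had a correlation over genes of -0.061. With 2 libraries per group this value cannot decide whether the numbers pair the libraries. With the replicate number as a block, 1 factor was called, the median was -0.12, and Eef1d was -0.62 with an edgeR adjusted p of 0.0122, while Dohh had an adjusted p of 0.0595. The median SE was 0.31, and the interval stayed within 2-fold for 34 of the 50 factors; the parts of depth, of having 2 libraries per group and of the spread between libraries in this were not tested.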
